A study of Mus musculus with 2 samples.

Results

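The small leucine-rich proteoglycans are secreted proteins of the extracellular matrix, and 8 of their genes were followed in RNA-seq of primary mouse hepatocytes: Dcn, Bgn and Aspn (class I), Lum, Fmod and Prelp (class II), Ogn (class III) and Podn (class V). The genes were named in advance by symbol and found through their RefSeq identifiers, and all 8 were among the 20317 genes of the mRNA table, with 10 of its 27457 transcripts. They were chosen by family and not by how they changed here, although earlier results of these data were known.

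The libraries came from wild-type male C57BL/6J mice, which were 5 weeks old when obtained. In 1 library, oil, the hepatocytes came from control mice given the mineral oil vehicle. In the other, CCl4, they came from mice injected into the peritoneum with a 20% solution of CCl4 in mineral oil, at 2.5 ml of CCl4 per kilogram and 2 injections per week. The labels give 8 weeks of injection and the methods give 4 weeks, and the number of mice behind a library was not given in the sources used here. CCl4 is a solvent that hepatocytes turn into a reactive radical, and repeated doses are a common model of liver fibrosis. With 1 library per group there was no replicate and no test between the groups, and every difference below is a difference between these libraries.

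Small leucine-rich proteoglycans have a curved core protein built of leucine-rich repeats, which lies along collagen fibrils and regulates how thick and how evenly spaced the fibrils grow. Most of them carry chains of chondroitin, dermatan or keratan sulfate, made in the Golgi apparatus. Decorin and biglycan also bind the cytokine TGF-beta, and soluble decorin and biglycan are ligands of cell surface receptors. In the liver they are known as products of stellate cells and fibroblasts, which deposit the matrix of a scar, more than of hepatocytes.

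Levels are RPKM, the reads of a transcript scaled by its length and by the size of the library, so that genes of different length can be compared. Every value under 1 RPKM was listed as 0, and a gene listed at 0 in a library is given no fold. Coordinates beside a member are those of the whole gene in the RefSeq table, and a transcript may start inside them. The steps between RPKM values of short genes gave totals of 57992543 reads for oil and 64655554 for CCl4. Ratios are log2 of CCl4 over oil with 0.1 RPKM added to both, which understates the change of low genes, and a gene was counted as higher or lower from a log2 ratio of 1. Beside them stand 95% exact Clopper-Pearson intervals on reads recovered from the RPKM values. These reads are lower bounds, which widens the intervals, but PCR duplicates of a fragment count as separate reads, which narrows them. With 1 library per group, the intervals account for counting error alone.

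Hepatocyte transcripts led both libraries. Alb, serum albumin, had 8656 RPKM in oil and 6476 in CCl4, and all 10 hepatocyte markers were above 0 in both. Their summed level was 18073 RPKM in oil and 10786 in CCl4, with 5 of 10 lower, 0 higher and a median log2 ratio of -1.06, and 8 lower after scaling to the median mRNA. Apoa1 and Ttr, which encode secreted plasma proteins, had 4086 and 2047 RPKM in oil and 1650 and 1250 in CCl4. Cyp2e1, the main enzyme that activates CCl4, had 644.7 and 127.8 RPKM, a log2 ratio of -2.33. Transcripts of other liver cells were also present in both libraries, and their values are given below beside the proteoglycans. In RNA from a whole cell preparation, fewer cells of a type and less RNA per cell cannot be told apart.

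Of the 8 proteoglycan genes, 6 were above 0 in both libraries, 1 (Podn) in CCl4 alone, and 1 (Aspn) in neither. Of all 20317 genes, 10689 were above 0 in both, 1162 in CCl4 alone, 161 in oil alone and 8305 in neither. A gene listed at 0 in oil alone was thus more common than one listed at 0 in CCl4 alone. Of the 6 members above 0 in both, 5 were higher in CCl4 (Dcn, Bgn, Lum, Prelp and Fmod), 0 were lower, and 1 (Ogn) lay within a log2 ratio of 1. Over all 10689 genes above 0 in both libraries, 14.3% were higher and 5.48% lower, and over the 14854 such transcripts 14.4% were higher and 5.3% lower. A log2 ratio of at least 2 was reached by 4 of the 6 members and by 1.76% of all genes above 0 in both. The median log2 ratio of all genes was 0.30, with the 5th percentile at -1.06 and the 95th at 1.52. Of all transcripts past the threshold, 73.2% were higher as deposited and 43.5% after both libraries were scaled to the median mRNA, and the same 5 members were higher under both.

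**Figure D1:**
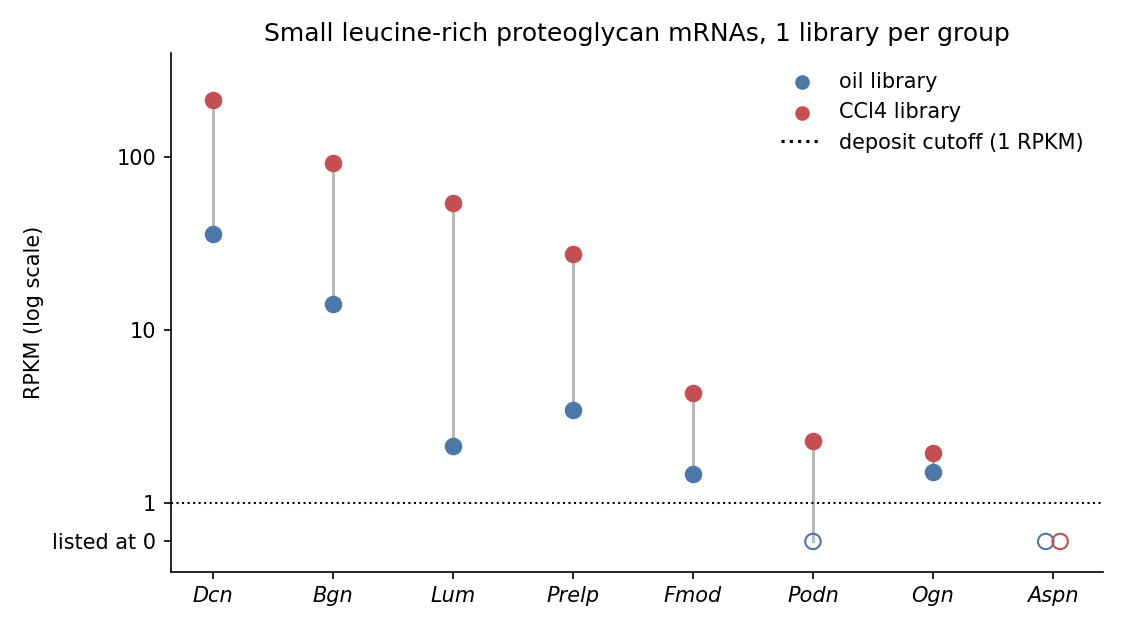
RPKM on a log scale (y axis) of the 8 small leucine-rich proteoglycan genes (x axis), with blue points for the oil library and red points for the CCl4 library, open points for values listed at 0 and a dotted line at the 1 RPKM cutoff. Dcn, Bgn, Lum, Prelp and Fmod lie higher in CCl4, Ogn lies near the cutoff in both, Podn appears in CCl4 alone and Aspn in neither.

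Decorin, encoded by Dcn, was the most abundant member in both libraries. It carries a single glycosaminoglycan chain, binds collagen I near its crosslinking sites and can hold TGF-beta in the matrix. Its transcript NM_001190451 (GRCm38, chr10:97479500-97518163) had 36.1 RPKM in oil and 213.9 in CCl4, so it was 5.92-fold higher in CCl4, a log2 ratio of 2.56. In rank of level it stood 1217th among the genes in oil and 200th in CCl4. On at least 3791 reads in oil and 25042 in CCl4, the log2 ratio of the reads was 2.57, with a counting interval from 2.52 to 2.62. The other listed transcript, NM_007833, had 34.0 RPKM in oil and 196.7 in CCl4, a 5.78-fold difference, with a counting interval of the log2 ratio from 2.41 to 2.66. The transcripts share most of their sequence, so they are not independent measurements.

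Biglycan, the nearest relative of decorin, binds collagen and TGF-beta and, once released from the matrix, can act as a ligand of Toll-like receptors. Its gene Bgn (NM_007542, GRCm38, chrX:73483601-73495936) had 14.1 RPKM in oil and 92.0 in CCl4. This was 6.52-fold higher in CCl4, a log2 ratio of 2.70, and on at least 757 and 5506 reads the counting interval ran from 2.60 to 2.82. The interval overlapped that of Dcn, and their ratios differed by 0.13 on the log2 scale. Asporin, the third class I member, whose amino-terminal region is rich in aspartate, was listed at 0 in both libraries for both transcripts of Aspn (GRCm38, chr13:49544443-49567565). A listed 0 says only that the level was under 1 RPKM.

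Lumican had the largest ratio of the members. It is a keratan sulfate proteoglycan known from the cornea, where it keeps collagen fibrils thin and regularly spaced, and it is also made in skin, vessels and scar tissue. Lum (NM_008524, GRCm38, chr10:97565501-97572703) had 2.13 RPKM in oil and 54.5 in CCl4, which was 25.6-fold higher and a log2 ratio of 4.62. This ratio had rank 3 among the 10689 genes, and 99.97% of them had a lower one. At least 256 reads in oil and 7314 in CCl4 gave a log2 ratio of the reads of 4.68, with a counting interval from 4.50 to 4.87. In rank of level Lum moved from 9130th in oil to 775th in CCl4.

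Prelp, another class II gene, encodes a protein with a basic amino-terminal region that binds heparan sulfate and so can link collagen to basement membrane. Prelp (NM_054077, GRCm38, chr1:133910304-133930102) had 3.43 RPKM in oil and 27.4 in CCl4. It was 7.98-fold higher in CCl4, a log2 ratio of 2.96, with a counting interval from 2.89 to 3.11 for the log2 ratio of the reads. Fibromodulin shares collagen binding sites with lumican and takes part in collagen crosslinking. Fmod (NM_021355, GRCm38, chr1:134037254-134048280) had 1.47 RPKM in oil and 4.34 in CCl4, which was 2.95-fold higher and a log2 ratio of 1.5. The counting interval of the log2 ratio of its reads, on at least 244 and 803 reads, ran from 1.35 to 1.77. Its ratio was above that of 94.7% of all genes, against 99.5% for Prelp and 99.4% for Bgn.

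Osteoglycin, also called mimecan, is a class III member first purified from bone. Ogn (NM_008760, GRCm38, chr13:49608015-49624501) had 1.52 RPKM in oil and 1.95 in CCl4, a log2 ratio of 0.34 that lay close to the median of all genes, with 52.6% of genes lower. On at least 56 and 80 reads the counting interval ran from -0.15 to 0.88 and included 0. These are the fewest reads that the values allow, so the interval at the true number of reads may be narrower. Podocan, a class V member known from kidney glomeruli and vessel walls, was listed at 0 in oil and at 2.27 RPKM in CCl4 for Podn (NM_172874, GRCm38, chr4:108014793-108031954).

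In order of their ratios the members ran Ogn, Fmod, Dcn, Bgn, Prelp and Lum. The counting intervals of Dcn and Bgn overlapped, which does not show that their ratios are equal. The other neighbours had counting intervals that did not overlap, with log2 ratios that differed by 1.16 from Ogn to Fmod, 1.06 from Fmod to Dcn, 0.26 from Bgn to Prelp and 1.66 from Prelp to Lum. These intervals hold no spread between animals.

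**Figure D2:**
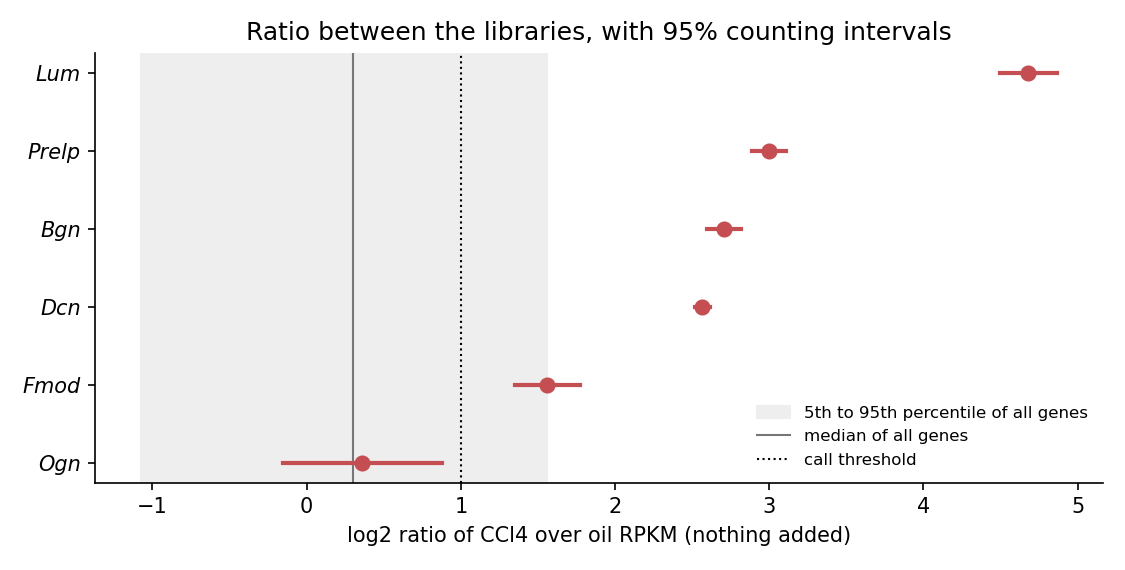
Log2 ratio of CCl4 over oil RPKM with nothing added (x axis) for the 6 members above 0 in both libraries (y axis), with bars for the 95% counting interval of the recovered reads, grey shading from the 5th to the 95th percentile of all genes and a dotted line at 1. Lum lies far to the right of the others, the intervals of Dcn and Bgn overlap, and Ogn lies near the median of all genes.

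The 8 members together had 58.7 RPKM in oil and 396.3 in CCl4, which was 6.75-fold higher. As a share of the summed RPKM of all mRNAs they were 0.0140% in oil and 0.110% in CCl4. Dcn made up 61.4% of the members' sum in oil and 54% in CCl4, and Bgn 24% and 23.2%. Lum made up 3.62% in oil and 13.8% in CCl4, and Prelp 5.84% and 6.91%. The shares of the low members were smaller in CCl4, with Fmod at 2.51% in oil and 1.1% in CCl4 and Ogn at 2.59% and 0.492%. Podn held 0.573% of the sum in CCl4. With the RPKM of all transcripts of a gene summed, Dcn made up 75.6% in oil and 69.2% in CCl4, Bgn 15.2% and 15.5%, and Lum 2.29% and 9.19%, so that Bgn changed the direction of its small difference. These shares are set within a library and do not change with its scaling. The Dcn transcripts share most of their sequence, so summing them, here and below, may count some reads more than once.

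**Figure D3:**
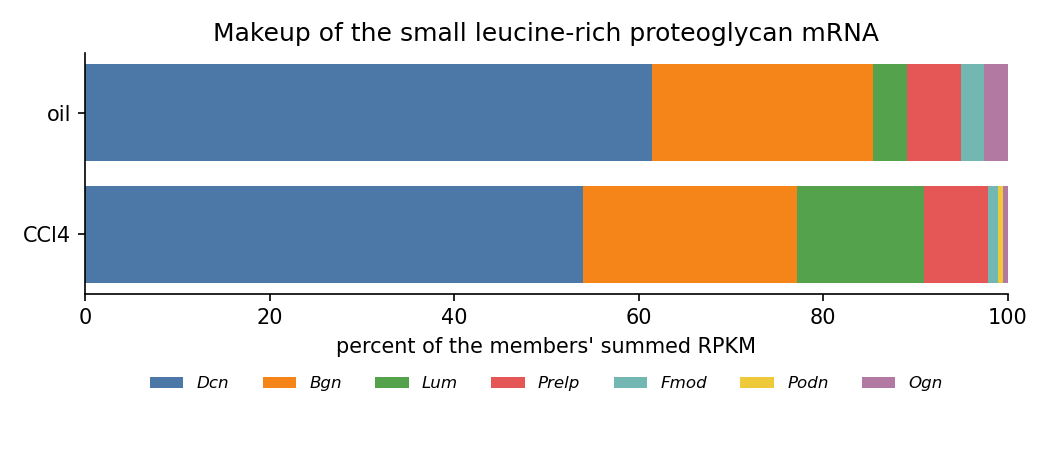
Percent of the summed RPKM of the 8 members (x axis) held by each gene, as stacked bars for the oil and the CCl4 library. Dcn is the largest block in both, and Lum is the block that widens most, from 3.62% to 13.8%.

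Ratios between members within a library showed how this makeup differed. Dcn was 17.0 times the level of Lum in oil and 3.92 times in CCl4, whereas it was 2.56 and 2.33 times the level of Bgn. With the transcripts of each gene summed, Dcn was 33 and 7.53 times the level of Lum, and 4.97 and 4.46 times that of Bgn. Bgn was 6.63 times the level of Lum in oil and 1.69 times in CCl4. Among the class II genes, Prelp was 2.33 times the level of Fmod in oil and 6.31 times in CCl4. Without Dcn, the other 7 members had 22.6 RPKM in oil and 182.4 in CCl4, with Bgn at 62.2% of that sum in oil and 50.4% in CCl4, and Lum at 9.39% and 29.9%.

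Several of these genes lie next to other family members. On chromosome 10, Dcn and Lum are 47.3 kb apart, followed by Kera and Epyc, both of which were listed at 0 in both libraries. On chromosome 1, Prelp and Fmod are 107.2 kb apart, and Optc, 0.616 kb from Prelp, was listed at 0 in both. On chromosome 13, Aspn and Ogn flank Omd, and Ecm2 lies 11.7 kb from Aspn. Ecm2 went from a listed 0 to 1.09 RPKM, and Omd was listed at 0 in both. Aspn and Ogn lie within the span of Cenpp, and whether reads were counted by strand was not given in the sources used here. Cenpp itself was listed at 0 in both libraries. Neighbours within a cluster thus had different levels, with Lum above 0 beside Kera and Epyc at 0.

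The windows before the annotated starts are shown for Bgn and Prelp, which were higher in CCl4, and for Ogn, which lay within a log2 ratio of 1. RefSeq windows of GRCm38.p6 were matched for 6 members (Bgn, Aspn, Fmod, Prelp, Ogn and Podn), and the 250 bases before the start were read 5′ to 3′ on the strand of the gene. Both strands were searched for a TATA box (TATAAA), a GC box (GGGCGG), an AP-1 site (TGANTCA), a TEAD site (GGAATG) and a CArG box. Capitals mark the matches. The windows are chrX:73483351-73483600 on the plus strand for Bgn, chr1:133921402-133921651 on the minus strand for Prelp, and chr13:49607765-49608014 on the plus strand for Ogn. The Prelp window lies inside the span of the gene given above, which also covers transcripts that start farther upstream.
Bgn: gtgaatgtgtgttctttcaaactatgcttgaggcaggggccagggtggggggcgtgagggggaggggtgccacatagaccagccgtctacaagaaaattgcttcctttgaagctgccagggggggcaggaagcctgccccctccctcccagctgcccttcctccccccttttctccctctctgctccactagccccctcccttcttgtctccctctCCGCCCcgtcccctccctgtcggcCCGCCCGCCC
Prelp: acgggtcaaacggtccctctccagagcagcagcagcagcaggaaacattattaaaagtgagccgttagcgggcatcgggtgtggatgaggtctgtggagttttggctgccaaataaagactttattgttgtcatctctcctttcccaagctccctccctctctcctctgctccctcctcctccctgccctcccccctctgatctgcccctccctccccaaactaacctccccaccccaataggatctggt
Ogn: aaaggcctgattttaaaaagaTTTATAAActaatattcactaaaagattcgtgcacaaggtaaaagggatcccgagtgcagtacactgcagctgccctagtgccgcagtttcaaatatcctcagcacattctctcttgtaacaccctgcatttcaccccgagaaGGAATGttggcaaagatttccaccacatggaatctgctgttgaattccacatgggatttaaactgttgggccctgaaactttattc

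The Bgn window was 64.4% G and C and held 3 GC boxes, of which the last 2 overlap and end at the base before the start. A GC box was found in 32.7% of all 32851 windows of this length. The Prelp and Fmod windows, at 55.6% and 51.2% G and C, held no match to any of the 5 motifs. The Ogn window was 42% G and C and held 2 overlapping TATA box matches, from base -229 to base -222 counted from the start, and a TEAD site. Those motifs were found in 12.4% and 12.6% of all windows. The median window was 52.4% G and C, with the 5th percentile at 34.8% and the 95th at 73.6%. Outside these percentiles lay the Aspn window, at 30% G and C with 2 TATA box matches, and a Podn window, at 78% with 2 GC boxes. The other Podn window, at 64%, held no match. A match to these letters is a description of the sequence, and no match says only that the letters are not in the window.

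Of 11 further genes of the family, 2 were above 0 in both libraries and neither was past the threshold. Tsku, tsukushi, a secreted protein that the liver is known to release, had 20.9 RPKM in oil and 24.6 in CCl4. Chad, chondroadherin of cartilage, had 1.24 and 1.4 RPKM. Ecm2 was above 0 in CCl4 alone, and Kera, Epyc, Omd, Optc, Podnl1, Chadl, Nyx and Nepn were listed at 0 in both. In oil, Tsku was thus second only to Dcn in the family, and in CCl4 it was below Dcn, Bgn, Lum and Prelp.

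Collagens to which these proteins bind were higher throughout the list. All 9 of the 9 matched collagen genes were higher in CCl4, each by a log2 ratio of at least 2, with a median of 3.88 and a range from 3.03 to 5.39. Their summed level was 49.3 RPKM in oil and 778.5 in CCl4, 15.8-fold higher, against 6.75-fold for the 8 proteoglycans. Col3a1, the chain of collagen III, had 19.6 RPKM in oil and 290.1 in CCl4. Col1a2 and Col1a1, the chains of collagen I, had 6.69 and 3.02 RPKM in oil and 141.8 and 130.5 in CCl4. Within a library, the level of Dcn was 11.9 times that of Col1a1 in oil and 1.64 times in CCl4 (23.2 and 3.15 times with transcripts summed). The level of Lum was 0.704 times that of Col1a1 in oil and 0.418 times in CCl4, and 0.109 and 0.188 times that of Col3a1.

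**Figure D4:**
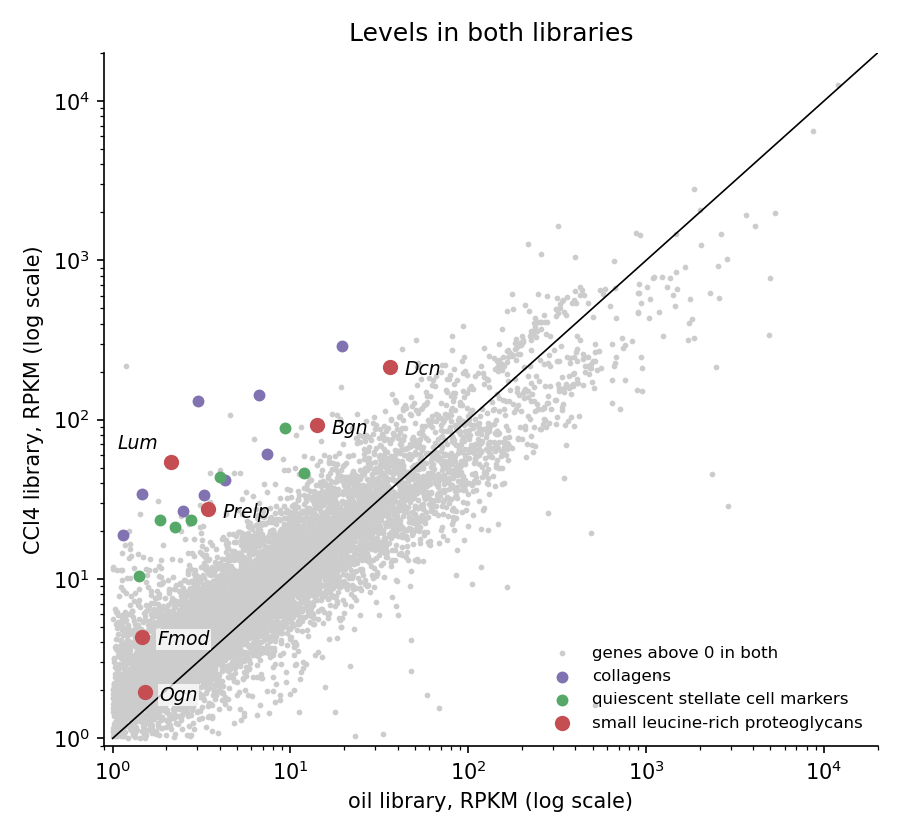
RPKM in the oil library (x axis, log scale) against RPKM in the CCl4 library (y axis, log scale) for genes above 0 in both, with the line of equal values, the members in red, collagens in purple and quiescent stellate cell markers in green. Lum, Bgn, Dcn and Prelp lie above the line among the collagens and stellate cell markers, and Fmod and Ogn lie within the cloud of all genes.

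Genes for enzymes that build the chondroitin and dermatan sulfate chains went both ways. Of 24 such genes, 20 were above 0 in both libraries, with 8 higher, 2 lower and a median log2 ratio of 0.68, and 4 more were listed at 0 in oil alone. After scaling to the median mRNA, 4 were higher and 2 lower. Ugdh, which makes the UDP-glucuronate used in the chains, had 36.7 RPKM in oil and 18.1 in CCl4, a log2 ratio of -1.02. Dse, the epimerase that turns chondroitin into dermatan sulfate, had 11 and 28.3 RPKM, a log2 ratio of 1.35. The sulfotransferase genes Chst15 and Chst12 had log2 ratios of 1.26 and 1.89, from 10.1 to 24.3 RPKM and from 1.97 to 7.59 RPKM. Of 9 genes for keratan sulfate chains and tyrosine sulfation, 6 were above 0 in both libraries, and 1 of them was higher as deposited and 0 after that scaling. That gene was B4galt4, a galactosyltransferase, with 2.42 RPKM in oil and 5.49 in CCl4, while Tpst2, a tyrosine sulfotransferase, had 34.4 and 42.0 RPKM. B4galt1 had 13.5 and 16.6 RPKM and B3gnt2 had 6.91 and 11.5, and neither was past the threshold.

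Of 5 genes for procollagen C-proteinases, which also trim the probiglycan precursor, and their enhancers, Pcolce was higher, with 6.40 RPKM in oil and 27.6 in CCl4 and a log2 ratio of 2.09. Bmp1, the proteinase itself, had 16.6 and 15 RPKM, Pcolce2 had 4.06 and 5.24, and Tll1 and Tll2 were listed at 0 in both.

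Of 19 genes for known ligands and receptors of these proteoglycans, 14 were above 0 in both libraries, with 4 higher and 1 lower and a median log2 ratio of 0.80, and 3 higher after scaling to the median mRNA. The lower gene was Egfr, a receptor of decorin and a major hepatocyte receptor, with 147.5 RPKM in oil and 22 in CCl4, a log2 ratio of -2.74. Lrp1, an endocytic receptor of decorin, had 81.1 and 117.7 RPKM, and Kdr, the VEGF receptor of endothelium, had 41.8 and 69.3. The 4 higher genes were named after their values were seen. They were Tgfb3 (1.81 and 6.63 RPKM) and Tgfb1 (6.75 and 20.2), which encode TGF-beta ligands, P2rx7 (2.39 and 8.27), an ATP-gated channel, and Tlr4 (3.93 and 9.13), a Toll-like receptor, with log2 ratios of 1.82, 1.56, 1.75 and 1.20, of which that of Tlr4 was under the threshold after the scaling. Igf1r and Ccn4 were listed at 0 in oil, with 2.65 and 2.33 RPKM in CCl4, and Tgfb2, Tnf and Itga2 were listed at 0 in both libraries.

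Of 24 genes for proteoglycans of other families, 14 were above 0 in both libraries, with 5 higher and 1 lower and a median log2 ratio of 0.68, and after scaling to the median mRNA 2 were higher and 1 lower. Named after their values were seen, the higher genes were Esm1 (log2 ratio 1.70), Hspg2, perlecan (1.39), Tgfbr3 (1.31), Gpc3 (1.1) and Gpc1 (1.01). The summed level of the list was 462.3 RPKM in oil and 363.9 in CCl4, and without Sdc4 the genes above 0 in both summed to 231.4 and 299.6. The lower gene was Sdc4, a cell surface heparan sulfate proteoglycan, with 230.9 RPKM in oil and 62.5 in CCl4. Sdc3 had 70.0 and 102.9 RPKM and Sdc1 had 58.7 and 38.3, log2 ratios of 0.56 and -0.61.

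Stellate cell markers were higher in the same library as the proteoglycans. The quiescent list also holds genes of stellate cells in either state, so it does not separate quiescent from activated cells. All 7 quiescent stellate cell markers above 0 in both libraries were higher in CCl4, of 10 listed, with a median log2 ratio of 3.19. The summed level of all 10 was 33.6 RPKM in oil and 294.8 in CCl4, 8.78-fold higher. Pdgfrb, Hand2 and Ngfr, the other 3, were listed at 0 in oil. Sums count a listed 0 as 0 RPKM, so this 8.78-fold is an upper value. Lrat, which makes the retinyl esters stored in stellate cells, had 1.84 and 23.6 RPKM, and Reln, a secreted glycoprotein that marks these cells, had 4.01 and 43.4. Colec11, a collectin, had 9.36 and 89.3 RPKM, and Ecm1, a matrix protein, had 12.0 and 46.6. Of 10 markers of activated stellate cells and myofibroblasts, 6 of the 7 above 0 in both were higher (5 after scaling to the median mRNA, without Timp1), and the summed level was 25.3 RPKM in oil and 124.9 in CCl4, with Lox and Thbs2 listed at 0 in oil and Col8a1 in both. Tagln, an actin-binding protein, had 4.32 and 26.0 RPKM, Postn, periostin, had 1.43 and 25.6, and Mgp, matrix Gla protein, had 9.76 and 16.5. The members' sum was 1.75 times the summed quiescent stellate markers in oil and 1.34 times in CCl4, and 2.33 and 3.17 times the activated markers. The same ratio was 1.24 in oil and 3.97 in CCl4 for the portal fibroblast markers and 1.29 and 4.94 for the mesothelial markers described next. The portal ratio depends much on Gas6, the most abundant portal marker, with 30.0 RPKM in oil and 48.7 in CCl4. Without Gas6, the portal markers above 0 in both summed to 16.3 RPKM in oil and 45.3 in CCl4. The part of any of these cells in the result was not tested.

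Portal fibroblasts, mesothelial cells and vascular smooth muscle also make matrix. Of 10 portal fibroblast markers, 3 of the 7 above 0 in both were higher, with a summed level of 47.5 RPKM in oil and 99.9 in CCl4. Gas6 had 30.0 RPKM in oil and 48.7 in CCl4, Cd34 had 5.90 and 16.4, Fbln2 had 2.89 and 10.1, and Eln, elastin, had 1.82 and 10.5. Mfap4 was listed at 0 in oil, Clec3b in CCl4 and Gli1 in both. Of 7 matched mesothelial markers, 2 of 6 were higher (1 after scaling to the median mRNA), the sum was 45.7 and 80.1 RPKM, and Wt1 was listed at 0 in oil. Msln, mesothelin, had 14.7 and 20.4 RPKM, Upk3b had 10.1 and 18.5, Krt19, a keratin shared with bile duct cells, had 8.86 and 17.8, and Upk1b had 2.72 and 7.06. Of 7 vascular smooth muscle markers, Smtn was the one above 0 in both libraries, with 2.22 and 7.16 RPKM. The sum of the list was 3.57 and 11.1 RPKM, and Cnn1, Lmod1 and Rergl were listed at 0 in both. Myh11, smooth muscle myosin, and Actg2 were listed at 0 in oil, with 2.32 and 1.63 RPKM in CCl4, and Pln was listed at 0 in CCl4.

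All 10 Kupffer cell and macrophage markers were above 0 in both libraries, and 7 were higher as deposited and 2 after scaling to the median mRNA, with a sum of 1465 RPKM in oil and 3118 in CCl4. Cd5l had 277.6 and 594.6 RPKM, and the complement genes C1qc and C1qb had 247.1 and 208.8 in oil and 610.8 and 526.0 in CCl4. Marco had the largest ratio of the list, with 42.3 and 277.9 RPKM and a log2 ratio of 2.71. Clec4f, a Kupffer cell lectin, went the other way, with 282.6 RPKM in oil and 254.5 in CCl4, a log2 ratio of -0.15. All 10 sinusoidal endothelial markers were above 0 in both, 2 were higher as deposited and 0 after that scaling, and their sum was 635.2 and 1097 RPKM. Clec4g, a lectin, had 238.0 and 379.8 RPKM, Fcgr2b had 75.0 and 154.4, Oit3 had 62.3 and 106.1, and Lyve1, a hyaluronan receptor, had 27.7 and 57.3. Of the cholangiocyte markers reported here, 4 were above 0 in both and 2 of these were higher (1 after scaling), with a sum of 50.9 and 170.2 RPKM, and Sox9 and Cldn7 were listed at 0 in both. Spp1, osteopontin, had 37.4 and 145.1 RPKM, and Krt7 had 3.25 and 5.14. Spp1 was most of the cholangiocyte sum, which without it was 13.4 RPKM in oil and 25.1 in CCl4. The part of these cells in the proteoglycan values was not tested.

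**Figure D5:**
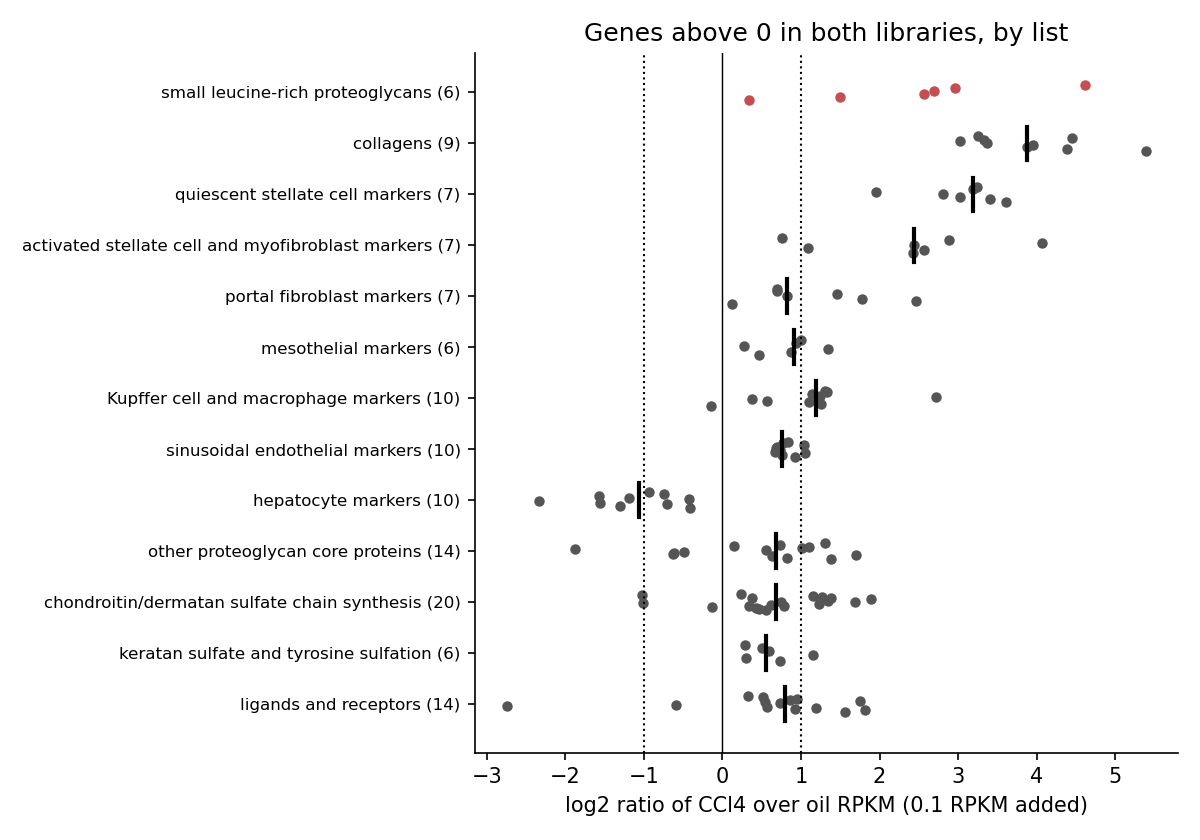
Log2 ratio of CCl4 over oil RPKM with 0.1 RPKM added (x axis) for genes above 0 in both libraries, by list (y axis, number of genes in brackets), with a point for each gene, a bar at the median of each list other than the members, and dotted lines at -1 and 1. Collagens (median 3.88) and quiescent stellate cell markers (3.19) lie farthest to the right, and hepatocyte markers (-1.06) lie to the left.

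The genes nearest to the abundant members in both levels were found by the distance between their log2 RPKM over the 2 libraries. Nearest to Dcn were Marco, a scavenger receptor of macrophages (distance 0.441, 42.3 and 277.9 RPKM), Lgals1, a galectin (0.521, 51.8 and 213.8), and Vim, the intermediate filament of mesenchymal cells (0.541, 52.3 and 227.4). Nearest to Lum were Igfbp3, a binding protein of insulin-like growth factors (0.763, 3.52 and 46.5), Olfml3 (0.848, 1.80 and 31.0) and Col6a3, a chain of collagen VI (0.870, 1.46 and 34.0). Nearest to Bgn were Gstm3 (0.310, 11.4 and 89.4), Tgfbi, a matrix protein induced by TGF-beta (0.339, 14.8 and 73.1), and Ccdc80 (0.362, 17.1 and 108.0). With 2 libraries, likeness means a like level in each and nothing more.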

How the data were processed

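RNA-seq was compared between 1 oil and 1 CCl4 library of primary hepatocytes, isolated by perfusion with pronase and collagenase and a density gradient. Groups came from the labels. The authors deposited RPKM values for mRNA transcripts, in which every value under 1 RPKM is listed as 0, and read counts for new lncRNAs, which the authors gave as whole numbers without normalization and which served to check read recovery. The submitters' processing notes name mm10, CASAVA 1.4 and TopHat2. The counting program and its use of strand were not given in the sources used here. The authors' columns of log2 change, p-value and q-value were not used.

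Symbols were taken from the RefSeq table of GRCm38.p6, which held 27049 of 27457 transcripts. Where a gene had several transcripts, the most abundant in the mean of both libraries stood for it. Library totals were those that gave whole reads in 212 of 225 (oil) and 225 of 240 (CCl4) genes shorter than 400 bases. The tolerance for a whole value is not stated here, so these counts alone do not show how exact the totals are. Reads of a transcript were taken at the shortest length that gave whole reads in both libraries. This step equalled the deposited counts in 83.2% of 1397 new lncRNAs. The check used totals from those counts, 62438205 for oil and 70960848 for CCl4. The members' totals, 57992543 and 64655554, differ from these and were not checked by it. A shortest length gives no more reads than the true length, so finding 0 above the deposited oil counts was no test.

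The members and lists were chosen with earlier results of these data known. Named genes are the members, family genes above 0, and per list the 3 most abundant and the one with the largest absolute log2 ratio, besides those listed at 0 in marker lists and the 3 nearest genes to Dcn, Lum and Bgn. Named outside this rule were genes next to a member on its chromosome, the higher genes among ligands, receptors and other proteoglycans, and genes listed at 0 among the family, the proteinases and the ligands and receptors. Timp1 and Clec4f were also named outside it, after their values were seen. Shares were also computed with all transcripts of a gene summed. Protein features of the members were not analysed here. A cholangiocyte marker is not reported here. On simulated data for oil against CCl4, with 10689 genes and counting error only, 185 of 200 genes changed 4-fold and 0 unchanged genes were called. Alternatives covered the pseudocount, scaling, threshold, filter on low values and the choice of transcript. Python 3.11.15, numpy 2.4.6, pandas 2.3.3, scipy 1.17.1 and matplotlib 3.10.9 were used.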

Additional observations from a re-analysis of the deposited data

How the results depend on the processing

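No member changed direction under any alternative run. Scaling both libraries to the median mRNA lowered the log2 ratios, for a median shift of 0.33, to 2.24 for Dcn, 2.37 for Bgn, 4.29 for Lum, 2.64 for Prelp, 1.18 for Fmod and 0.030 for Ogn, and left 7.5% of all transcripts higher and 9.74% lower. Rescaling without the 10 most abundant mRNAs gave 2.73 for Dcn, 2.86 for Bgn and 3.13 for Prelp. With 1 RPKM added, Lum had 4.15, Prelp 2.68 and Fmod 1.11. At a log2 ratio of 2, 1.65% of transcripts were higher and 0.646% lower. The number of members higher was 5, and it was 4 at a log2 ratio of 2, 4 among transcripts averaging 5 RPKM or more, where Fmod and Ogn dropped out and gave no value and Lum and Prelp passed only through their CCl4 level, so that this count is no sign of stability, and 6 with values listed at 0 included and 1 RPKM added. It was 0 lower under each. The median of each list kept its sign, except that of the other family genes (2 genes), which ran from -0.11 to 0.36. The size of the medians was less stable, and 46 list medians moved by more than 0.1 while 49 did not. After scaling to the median mRNA, the median fell from 0.68 to 0.36 for chondroitin and dermatan sulfate synthesis. It fell from 0.68 to 0.36 for the other proteoglycans and from 0.80 to 0.47 for the ligands and receptors. Counts of genes past the threshold in each list, after scaling to the median mRNA, were added after seeing the data and stand beside each list whose count they change, as do level ratios of Dcn with transcripts summed. No paired analysis was possible because each group is 1 library. Of the shares of members in their sum, 24 moved and 6 did not when transcripts were summed or Dcn was left out. Those 6 were shares of 0, of Aspn in both libraries and Podn in oil, which could not move. Every share above 0 moved. The recovered reads are lower bounds, which limits the intervals, and the 1 RPKM cutoff limits Podn and Aspn.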
